A study of Mus musculus with 8 samples.

Results

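Oligosaccharyltransferase is the enzyme complex of the endoplasmic reticulum membrane that moves a preassembled glycan from a dolichol carrier onto asparagine residues of proteins entering the reticulum. Transcripts of 10 genes for its subunits, Rpn1, Rpn2, Ddost, Dad1, Stt3a, Stt3b, Ostc, Ost4, Tmem258 and Krtcap2, were followed in mouse pancreatic islets. The genes were chosen by symbol, through their Ensembl gene IDs, and all 10 were found among the 35596 genes measured. Islets are small groups of endocrine cells within the pancreas, and polyadenylated RNA of hand-picked islets was sequenced from male C57BL/6J mice, an inbred strain. The 4 weight-cycled libraries came from mice given a 60% fat diet for 9 weeks, a 10% fat diet for 9 weeks and the 60% fat diet for another 9 weeks. The 4 obese libraries came from mice given the 10% fat diet for 9 weeks and then the 60% fat diet for 18 weeks. Total time on each diet was equal, so the comparison asks how the order of the diets bears on islet transcripts, while the last unbroken stretch of high-fat feeding also differed, at 9 weeks in weight-cycled and 18 weeks in obese mice. Whether a library stands for 1 mouse is not stated, so each p-value is set against library-to-library spread that could be technical in part.

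Mammalian cells hold the enzyme in more than one form, set by the catalytic subunit. The form built on Stt3a sits at the protein-conducting channel and glycosylates chains as they are made, and the form built on Stt3b acts on sites that were passed over. Ribophorins I and II (Rpn1 and Rpn2), Ddost, Dad1, Ost4 and Tmem258 belong to both forms. Ostc and Krtcap2 are held by the Stt3a form only, and the thiol oxidoreductases Tusc3 and Magt1 by the Stt3b form. Beta cells, which fill most of an islet, send large amounts of protein through the endoplasmic reticulum. Proinsulin itself carries no such glycan, but surface proteins such as the glucose transporter encoded by Slc2a2 do.

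The catalytic subunits are paralogs, so their sequences are shown first, because the method must tell their reads apart. The coding stretch around the conserved active-site motif of tryptophan, tryptophan, aspartate, tyrosine and glycine was read from GENCODE M21 transcripts on GRCm38, with the codons of the motif in capitals.
Stt3a: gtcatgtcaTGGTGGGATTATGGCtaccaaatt
Stt3b: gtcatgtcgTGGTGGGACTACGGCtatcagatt
The stretches differ at 5 of 33 bases. No run of 31 bases was shared between the protein-coding transcripts of Stt3b and the transcripts of any other gene, and 0.113% of the 31-base runs of Stt3a were. The other members shared between 0% (Ddost) and 52.4% (Ost4) of their 31-base runs with other genes. Nearly all of the shared runs of Ost4 belonged to Agbl5, which overlaps it on the opposite strand. Krtcap2 shared 16.7% with Trim46 and Tmem258 10.5% with Fen1, both on the opposite strand. Whether strand was used in counting is not given in the sources used here, so reads of these 3 pairs may not be told apart. The partners stood at 0.484 to 0.640 TPM (Agbl5), 0.255 to 0.445 TPM (Trim46) and 1.23 to 1.75 TPM (Fen1) in weight-cycled libraries. In obese libraries they stood at 0.774 to 0.987, 0.286 to 0.745 and 1.10 to 1.72 TPM, far below the members.

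Promoter windows from RefSeq on GRCm38.p6, running from 250 bases before to 50 bases after an annotated start, were held for 9 of the 10 members in 12 windows. Ostc had none. Windows are shown for Ddost, Krtcap2 and Rpn1, the 3 members with the highest pairwise correlations over the libraries, and for both catalytic subunits. Capitals mark CCAAT and CCACG on either strand, the parts of the endoplasmic reticulum stress response elements ERSE and ERSE-II, to which the unfolded protein response factors ATF6 and XBP1 can bind.
Krtcap2, chr3:89246223-89246522, plus strand: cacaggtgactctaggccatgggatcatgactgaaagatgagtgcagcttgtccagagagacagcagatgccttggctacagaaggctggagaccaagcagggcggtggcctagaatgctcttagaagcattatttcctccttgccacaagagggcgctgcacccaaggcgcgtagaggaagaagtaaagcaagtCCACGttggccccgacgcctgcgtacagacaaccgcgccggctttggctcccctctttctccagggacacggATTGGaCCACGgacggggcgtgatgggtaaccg
Ddost, chr4:138304488-138304787, plus strand: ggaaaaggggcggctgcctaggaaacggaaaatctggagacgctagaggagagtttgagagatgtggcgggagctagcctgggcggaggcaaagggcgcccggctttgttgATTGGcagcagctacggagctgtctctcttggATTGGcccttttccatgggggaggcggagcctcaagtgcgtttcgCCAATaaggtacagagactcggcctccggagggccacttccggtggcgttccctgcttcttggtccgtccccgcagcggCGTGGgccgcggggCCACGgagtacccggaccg
Rpn1, chr6:88084223-88084522, plus strand: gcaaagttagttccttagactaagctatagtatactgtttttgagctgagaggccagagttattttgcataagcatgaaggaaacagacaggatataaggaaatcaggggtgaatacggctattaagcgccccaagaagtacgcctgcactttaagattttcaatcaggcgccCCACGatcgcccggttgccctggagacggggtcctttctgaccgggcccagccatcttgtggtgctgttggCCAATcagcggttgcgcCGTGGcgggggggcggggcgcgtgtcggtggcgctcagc
Stt3a, chr9:36767573-36767872, minus strand: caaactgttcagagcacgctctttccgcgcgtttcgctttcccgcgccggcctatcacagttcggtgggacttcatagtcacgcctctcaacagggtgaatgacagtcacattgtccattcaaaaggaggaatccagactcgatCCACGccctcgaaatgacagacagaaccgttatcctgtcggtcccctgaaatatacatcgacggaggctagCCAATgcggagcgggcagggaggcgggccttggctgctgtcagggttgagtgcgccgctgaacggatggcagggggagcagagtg
Stt3b, chr9:115310419-115310718, minus strand: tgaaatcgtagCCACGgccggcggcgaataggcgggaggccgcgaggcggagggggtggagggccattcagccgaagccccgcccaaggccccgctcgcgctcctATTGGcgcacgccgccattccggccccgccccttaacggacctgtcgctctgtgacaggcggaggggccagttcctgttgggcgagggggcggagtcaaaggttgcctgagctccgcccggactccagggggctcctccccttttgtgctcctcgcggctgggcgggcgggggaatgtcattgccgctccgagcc
CCAAT stood in 7 of the members' 12 windows and in 37.4% of all 32851 windows, and CCACG in 9 of the 12 and in 32.8% of all windows. Counted by member, CCAAT stood in 7 and CCACG in 8, as the windows of Krtcap2 overlap and share a CCACG. The full ERSE, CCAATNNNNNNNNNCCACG, was in none of the members' windows and in 0.119% of all. The full ERSE-II, ATTGGNCCACG, which includes a CCAAT and a CCACG match, was in 1 of the members' windows, that of Krtcap2 shown here, and in 0.0365% of all windows. Its first base lay 18 bases into the transcript at that start. The window of the other annotated start of Krtcap2, chr3:89246188-89246487, held a CCACG but not the ERSE-II. Both strands were searched, and a match is a description of the letters only.

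Values were TPM, a share of all transcripts in a library corrected for length. Columns summed to between 999930 and 999949, and the depth behind them is unknown. Islet identity was plain, as beta-cell markers summed to 784923 to 812606 TPM in weight-cycled and 789616 to 803454 TPM in obese libraries. Most of that sum was Ins2, with means of 678496 TPM in weight-cycled and 678759 TPM in obese libraries. Of the 8 markers 5 were lower (limma adjusted p below 0.05), against 23.9% of all genes. In tissue of mixed cells, fewer cells of a type and less RNA per cell cannot be told apart. The median log2 fold change of all 8127 genes tested was -0.26, weight-cycled minus obese on log2(TPM + 1), and 14.5% of them were above 0. Weight-cycled replicate 1 stood apart from its group. On the first principal component, with 66.8% of the variance, it scored -7.98, among the obese libraries at -23.3 to -5.03, while the other weight-cycled libraries scored 13.8 to 30.6. It also shared with the obese libraries a rise of a gene's deviation with transcript length (Spearman's rho 0.345 across genes, against 0.184 to 0.375 in obese libraries), where the other weight-cycled libraries had -0.400 to -0.283. Results below are therefore given with and without it where they rest on it. As it was singled out for its likeness to the obese libraries, leaving it out favours wider group differences. P-values without it therefore cannot be taken at face value.

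In TPM, the catalytic subunit Stt3a fell in weight-cycled islets and the other 9 subunits did not pass the test. Stt3b had a fold change close to that of Stt3a, the 6 subunits of both forms lay between -0.07 and 0.18 on the log2 scale, and Ostc had the largest value, 0.39. Stt3a was the only member past the threshold, an adjusted p below 0.05 by limma over all genes tested. Thus 1 of 10 members was lower, against 23.9% of all genes, and 0 of 10 were higher, against 1.21% of all genes. At an unadjusted limma p under 0.05, 1 member was higher (Ostc) and 1 lower (Stt3a). Of the 8127 genes tested, 214 were higher and 3779 lower at that cutoff. The members' median log2 fold change was 0.06, 7 of the 10 were above 0, and 9 were above the median of all genes.

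**Figure D1:**
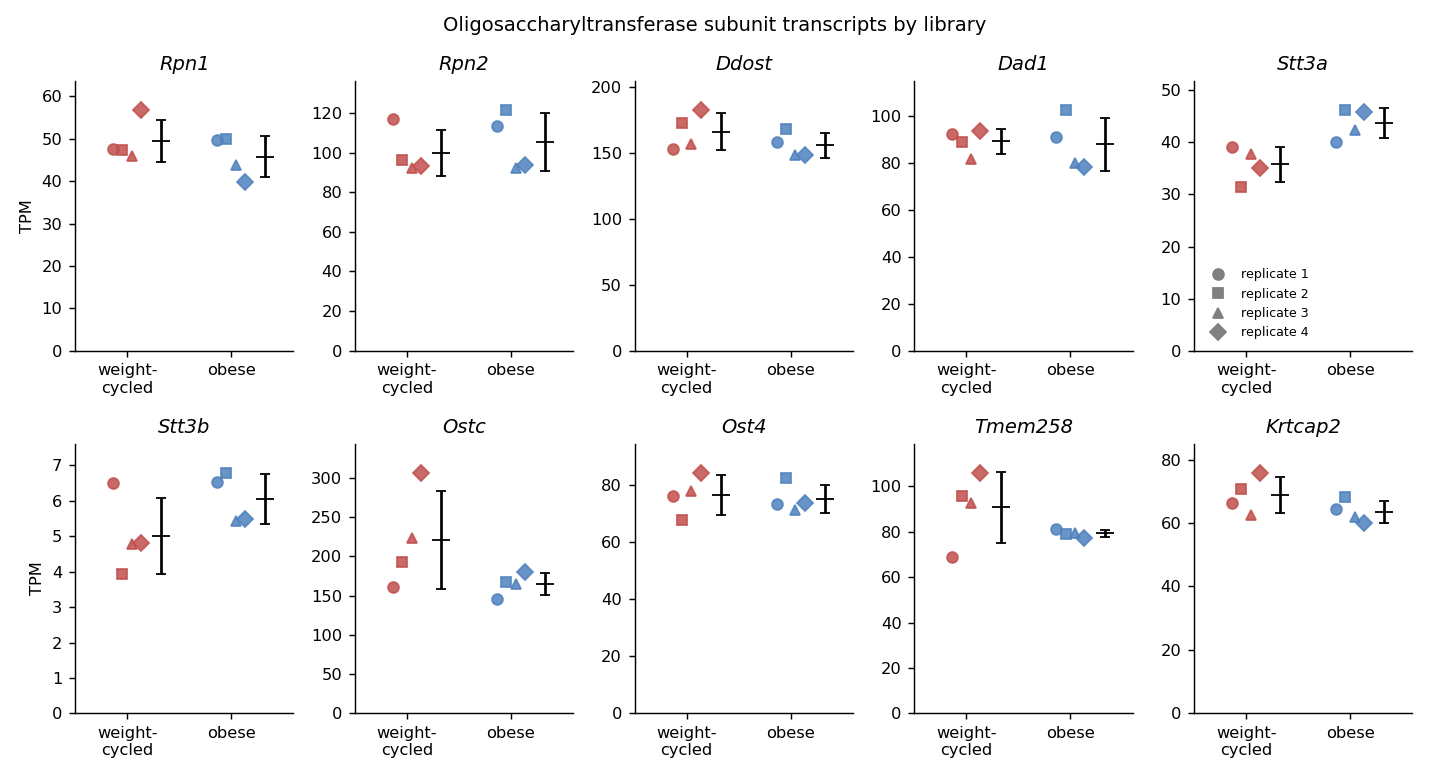
TPM of the 10 subunit genes in each library (vertical axes, from 0), weight-cycled in red and obese in blue, with marker shapes for replicate numbers and black bars for mean ± SD (n = 4 each). Stt3a is the only panel without overlap between the groups, and Ostc reaches 307 TPM in weight-cycled replicate 4.

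The transcript of Stt3a (ENSMUSG00000032116.18, chromosome 9, 36729344 to 36767679, mm10) was at 39.0, 31.4, 37.7 and 35.2 TPM in weight-cycled replicates 1 to 4, against 40.2, 46.2, 42.3 and 45.8 TPM in obese replicates 1 to 4. The highest weight-cycled library lay just below the lowest obese one, so the groups did not overlap. Groups failed to overlap for 22.4% of all genes and for 1 of the 10 members. The means were 35.8 ± 3.37 TPM in weight-cycled and 43.6 ± 2.89 TPM in obese islets (SD, n = 4 each). On the log2 scale Stt3a fell by 0.28 (SE 0.0946, limma adjusted p = 0.0492). That value lies 0.023 below the median of all genes. After median-of-ratios scaling, which sets the median gene to -0.01, Stt3a was at 0.043 (limma adjusted p = 0.790). Leaving out any library other than weight-cycled replicate 1 ended the call, with limma adjusted p from 0.0807 to 0.134, while the log2 fold change stayed between -0.32 and -0.22. In 6 of those 7 fits at most 49 genes in all were called lower, against 1946 with all libraries.

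Stt3b (ENSMUSG00000032437.10, chromosome 9, 115242581 to 115310421) was the lowest member, at 6.50, 3.93, 4.78 and 4.81 TPM in weight-cycled and 6.53, 6.80, 5.44 and 5.47 TPM in obese replicates 1 to 4. Weight-cycled replicate 1 lay among the obese libraries and the other 3 below all of them. Its log2 fold change was -0.25 (SE 0.134, limma adjusted p = 0.157), with a 95% interval from -0.54 to 0.05. Without weight-cycled replicate 1 it was -0.36 and passed (limma adjusted p = 0.0168), in a fit that called 54.4% of all genes lower and 3.35% higher. After scaling it was at 0.033.

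The proportion of the catalytic transcripts was close to equal in the groups. Stt3a made up 87.8% ± 1.46 of the summed TPM of Stt3a and Stt3b in weight-cycled and 87.8% ± 1.48 in obese islets (SD, n = 4 each). The ratio of Stt3a to Stt3b, which does not depend on library scaling, was 6.01, 7.99, 7.89 and 7.31 in weight-cycled and 6.15, 6.80, 7.78 and 8.37 in obese replicates 1 to 4. The ranges overlapped almost wholly, and the difference of 0.0058 in log2 was well within the spread (exact permutation test over 70 assignments, two-sided, p = 0.943, adjusted p = 0.943 over 2 ratios). The smallest p this design allows is 0.0286. The difference was -0.29 after length correction with median transcript lengths and -0.013 with longest ones.

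**Figure D2:**
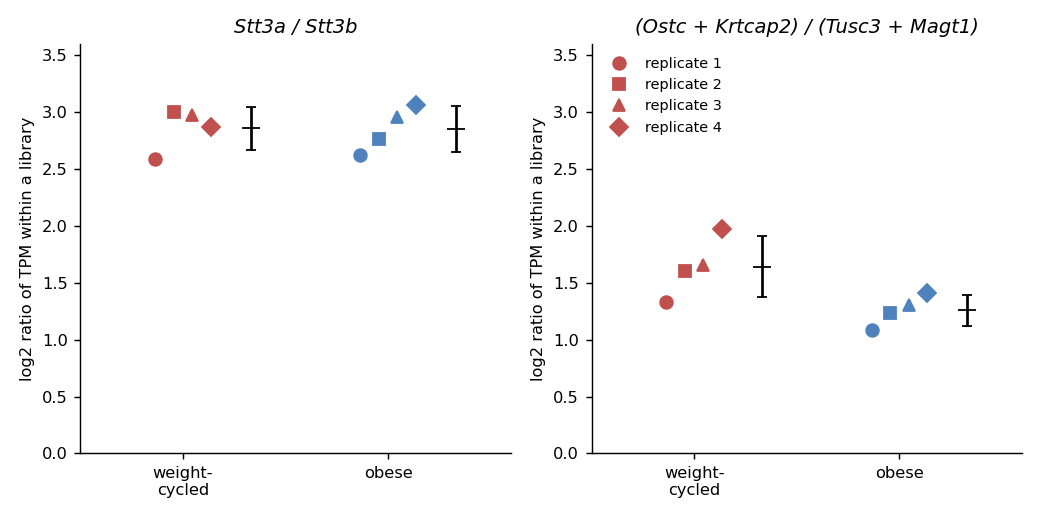
Log2 ratios of TPM within each library (vertical axes, from 0) for the catalytic subunits (left) and for the subunits held by one form of the enzyme only (right), weight-cycled in red and obese in blue, with mean ± SD in black (n = 4 each). The left ratio lies between 2.59 and 3.06 in both groups together, and on the right 3 of 4 weight-cycled libraries lie above every obese library.

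Ostc (ENSMUSG00000041084.8, chromosome 3, 130695912 to 130709444), whose product joins the Stt3a form to the protein-conducting channel, had the highest mean TPM over all libraries and the largest fold change of the members. Ddost lay above it in obese replicates 1 and 2. It was at 161, 193, 224 and 307 TPM in weight-cycled and 146, 167, 164 and 180 TPM in obese replicates 1 to 4. Weight-cycled replicates 2, 3 and 4 lay above every obese library and replicate 1 within their range. Its means were 221 ± 62.4 TPM in weight-cycled and 164 ± 13.9 TPM in obese islets (SD, n = 4 each). The weight-cycled mean was 34.7% above the obese one, and the log2 fold change was 0.39 (SE 0.164, limma adjusted p = 0.0819). It missed the threshold with all libraries, also after scaling (0.72, limma adjusted p = 0.0935). It passed without weight-cycled replicate 1, at 0.53 (SE 0.138, limma adjusted p = 0.00630), in a fit that called 3.35% of all genes higher and 54.4% lower. Without weight-cycled replicate 4 it was 0.22 (limma adjusted p = 0.179).

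Krtcap2 (ENSMUSG00000042747.12, chromosome 3, 89245966 to 89249906), the other subunit of the Stt3a form, was at 66.4, 70.6, 62.6 and 75.9 TPM in weight-cycled and 64.4, 68.1, 61.7 and 60.2 TPM in obese replicates 1 to 4. The groups overlapped, and its log2 fold change was 0.11 (SE 0.0889, limma adjusted p = 0.318). On the side of the Stt3b form, Tusc3 had 70.6 ± 6.97 TPM in weight-cycled and 71.5 ± 0.995 TPM in obese islets (SD, n = 4 each; limma adjusted p = 0.844). Its alternative Magt1 had 20.7 ± 4.53 TPM in weight-cycled and 23.8 ± 4.72 TPM in obese islets (limma adjusted p = 0.328). The log2 ratio of summed Ostc and Krtcap2 to summed Tusc3 and Magt1 was 1.33, 1.61, 1.66 and 1.98 in weight-cycled and 1.08, 1.23, 1.30 and 1.41 in obese replicates 1 to 4. It averaged 1.64 ± 0.265 in weight-cycled and 1.26 ± 0.137 in obese islets (SD, n = 4 each). The difference of 0.38 did not pass (exact permutation test, two-sided, p = 0.0571, adjusted p = 0.114 over 2 ratios), and was 0.27 when weight-cycled replicate 4 was left out. Without weight-cycled replicate 1 it was 0.49, and the exact permutation p was 0.0286, the smallest that 35 assignments allow. Adjusted over 2 ratios that is 0.0571, so beside the other ratio no adjusted p below 0.05 could be reached, with all libraries or without 1. Ostc and Krtcap2 have shorter transcripts than Magt1, and length moved with the groups as given earlier. After length correction the difference was 0.32.

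Among the 6 subunits of both forms, none passed the threshold. Tmem258 (ENSMUSG00000036372.14, chromosome 19, 10204014 to 10207824), a small membrane subunit, was at 68.9, 95.4, 92.6 and 106 TPM in weight-cycled and 81.4, 78.8, 79.3 and 77.4 TPM in obese replicates 1 to 4. Weight-cycled replicate 1 was below and the other 3 above every obese library, which lay close together. The log2 fold change was 0.18 (SE 0.120, limma adjusted p = 0.242), and 0.30 (limma adjusted p = 0.0116) without weight-cycled replicate 1. The fit without that library called 3.35% of all genes higher and 54.4% lower.

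Ddost (ENSMUSG00000028757.4, chromosome 4, 138304730 to 138312628), a non-catalytic membrane subunit, was at 153, 172, 157 and 183 TPM in weight-cycled and 158, 168, 149 and 148 TPM in obese replicates 1 to 4. Rpn1 (ENSMUSG00000030062.7, chromosome 6, 88084482 to 88105304), ribophorin I, was at 47.6, 47.4, 45.9 and 56.8 TPM in weight-cycled and 49.7, 49.9, 43.8 and 39.9 TPM in obese replicates 1 to 4. The groups overlapped for both, with log2 fold changes of 0.09 and 0.11 and 95% intervals from -0.11 to 0.29 for Ddost and from -0.12 to 0.34 for Rpn1. Rpn2 (ENSMUSG00000027642.15, chromosome 2, 157279017 to 157326319), ribophorin II, was at 117, 96.3, 92.2 and 93.3 TPM in weight-cycled and 114, 122, 92.2 and 93.5 TPM in obese replicates 1 to 4. It fell into a higher and a lower pair of libraries in the obese group, and only replicate 1 of the weight-cycled group lay with the higher pair. Its log2 fold change was -0.07 with an interval from -0.33 to 0.18, and turned to 0.25 after scaling.

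Dad1 (ENSMUSG00000022174.8, chromosome 14, 54235479 to 54254104), a small subunit named for its defence against cell death, was at 92.4, 88.8, 81.7 and 93.3 TPM in weight-cycled and 91.0, 102, 80.0 and 78.1 TPM in obese replicates 1 to 4. Ost4 (ENSMUSG00000038803.7, chromosome 5, 30905885 to 30907788), the smallest subunit, which holds the catalytic subunit in the complex, was at 76.4, 67.7, 78.2 and 84.5 TPM in weight-cycled and 73.4, 82.5, 71.3 and 73.9 TPM in obese replicates 1 to 4. The groups overlapped for both. Their log2 fold changes were 0.025 each, with intervals from -0.20 to 0.25 for Dad1 and from -0.18 to 0.23 for Ost4. Changes of a size within those intervals are not excluded.

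Per length, the order of mean TPM over all libraries was Ostc, Ddost, Rpn2, Dad1, Tmem258, Ost4, Krtcap2, Rpn1, Stt3a and Stt3b, running from 193 down to 5.53 TPM. The step from Ddost to Rpn2, from Krtcap2 to Rpn1 and from Stt3a to Stt3b held in 8 of 8 libraries. Dad1 lay above Tmem258 in 5 of 8 libraries, Ostc above Ddost in 6 and Tmem258 above Ost4 in 6, so these neighbours were not separated by their spread. The 10 members together held 903 ± 93.3 TPM in weight-cycled and 827 ± 45.7 TPM in obese islets (SD, n = 4 each). The sum was 828, 867, 876 and 1039 TPM in weight-cycled and 825, 892, 789 and 802 TPM in obese replicates 1 to 4, so only weight-cycled replicate 4 lay above the obese range. Ostc alone was 24.2% ± 4.32 of the sum in weight-cycled and 19.9% ± 2.10 in obese islets.

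Members varied together in part. Over the 8 libraries the closest pairs in log2(TPM + 1) were Ddost with Krtcap2 (Pearson's r 0.94), Rpn1 with Krtcap2 (0.88) and Rpn1 with Ddost (0.84), and the most opposed pair was Stt3b with Tmem258 (-0.75). All pairs share libraries and their composition, so these values are a description. The genes whose log2(TPM + 1) lay closest to the mean standardised profile of the members were Zfp87, Rras2, Crls1, Synpr and Selenom, with Pearson's r from 0.93 to 0.95 and Spearman's rho from 0.81 to 0.93 over the same 8 libraries. They were picked for the highest r among the other genes tested, so the height of these values follows in part from the choice. Their group means ran from 1.79 TPM (Rras2, obese) to 130 TPM (Selenom, weight-cycled).

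Because the median gene was lower in weight-cycled libraries, each member's place depended on the scale. Median-of-ratios scaling put all 10 members above 0, with a median of 0.39 against -0.01 for all genes. It called 0 of 10 higher and 0 lower (lowest limma adjusted p = 0.0757), against 1.24% and 0.566% of all genes. At an unadjusted limma p under 0.05, 8 members were higher and 0 lower. Of the 8127 genes tested, 1339 were higher and 1130 lower at that cutoff. Removing each library's trend with transcript length put 9 above 0, all but Stt3a. It again called 0 of 10 either way (lowest limma adjusted p = 0.0692), against 1.78% higher and 1.53% lower of all genes. Here 7 members were higher and 0 lower at an unadjusted limma p under 0.05, beside 1038 genes higher and 1179 lower in all. Without weight-cycled replicate 1, scaling called 7 members higher, all but Rpn2, Stt3a and Stt3b, in a fit that called 20% of all genes higher. Rpn1 was then at 0.53 (SE 0.0980, limma adjusted p = 0.00569) and Ostc at 0.93 (SE 0.168, limma adjusted p = 0.00520). Length correction without that library called 6 higher, against 12.8% of all genes. On TPM as deposited without it, 2 were higher (Ostc and Tmem258), against 3.35% of all genes, and 2 lower (Stt3a and Stt3b), against 54.4%.

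**Figure D3:**
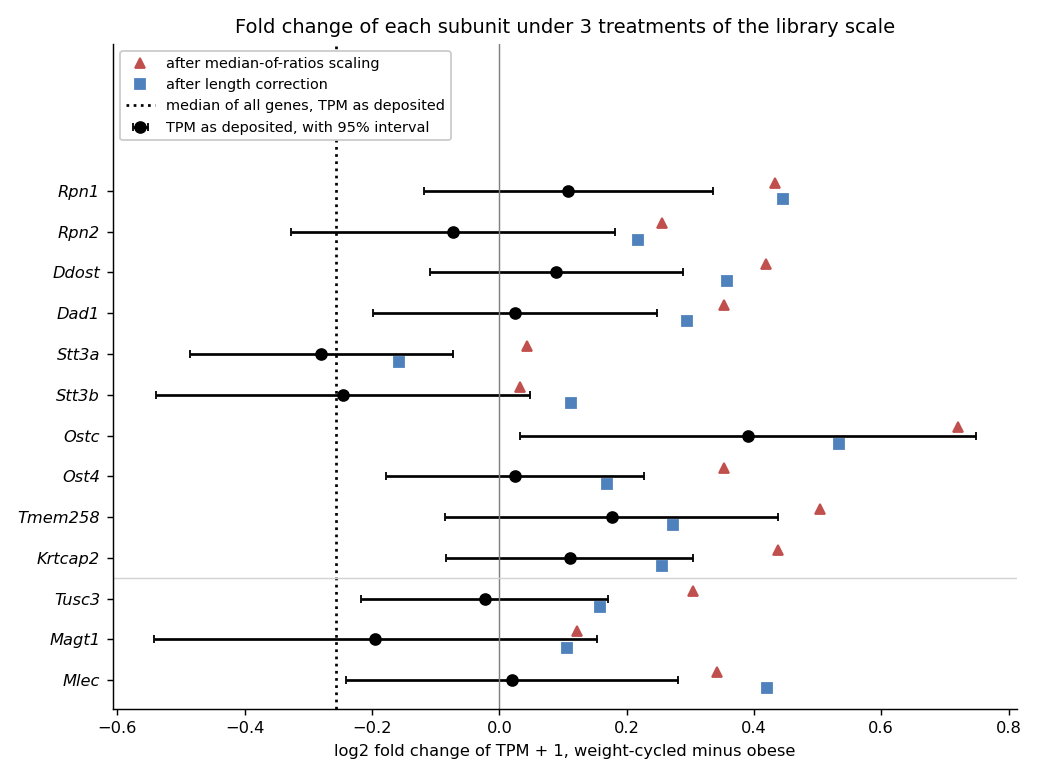
Log2 fold change of TPM + 1, weight-cycled minus obese (horizontal axis), of the 10 subunits and of Tusc3, Magt1 and Mlec below the grey line. Black points are TPM as deposited with 95% intervals, red triangles follow median-of-ratios scaling, blue squares follow length correction, and the dotted line is the median of all genes at -0.26. Ostc lies furthest to the right and both catalytic subunits lie at the dotted line.

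Fold changes varied with transcript length over all genes. Their median was -0.14 in the shortest of 5 equal bins of genes by length and -0.36 in the longest. Tmem258, Ost4, Krtcap2 and Ostc had median transcript lengths of 527, 860, 877 and 1067 bases, and Ddost, Dad1, Rpn2, Rpn1 and Stt3b of 2120 to 4221 bases. Rpn1, at 3633 bases, stood at 0.11 where its bin had a median of -0.36, and Stt3b, at 4221 bases, at -0.25. The length of Stt3a is uncertain, as the median of its 4 protein-coding transcripts was 640 bases and the longest 5867. With the longest transcript as its length, the corrected value of Stt3a was 0.087 in place of -0.16.

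**Figure D4:**
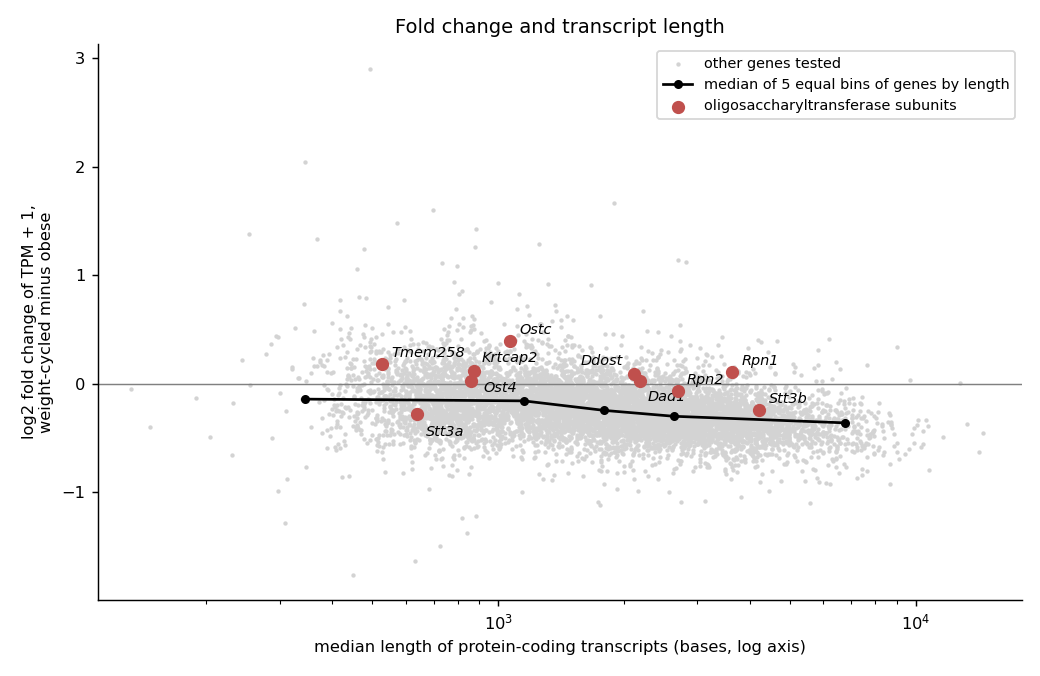
Log2 fold change of TPM + 1, weight-cycled minus obese (vertical axis), against the median length of a gene's protein-coding transcripts in bases (horizontal log axis). Grey points are the other genes tested, the black line joins the medians of 5 equal bins, and red points are the 10 subunits, of which Stt3a lies below the line and the other 9 above it.

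Other steps of N-glycosylation and of entry to the endoplasmic reticulum were set beside the subunits. Of 21 measured genes that build the dolichol-linked glycan, 2 were higher and 2 lower and 17 did not pass, with a median of -0.08, where 1.21% of all genes were higher and 23.9% lower. After scaling 0 passed, against 1.24% of all genes higher and 0.566% lower. With length correction 2 were higher and 0 lower, against 1.78% and 1.53% of all genes. Dpm3, the anchor subunit of dolichol-phosphate mannose synthase, had 213 ± 45.2 TPM in weight-cycled and 150 ± 8.87 TPM in obese islets (SD, n = 4 each; log2 fold change 0.48, limma adjusted p = 0.0362). Alg5, which makes the dolichol-linked glucose donor, rose by 0.44, while the transferase genes Alg2 and Alg10b were at -0.44 and -0.43, and at -0.13 and -0.22 after scaling. Of 10 sugar nucleotide genes, Ugp2, which makes UDP-glucose, fell by 0.48 on the log2 scale and 9 did not pass. After scaling Ugp2 was at -0.19 (limma adjusted p = 0.150), and 0 of the 10 passed. Gfpt1, which opens hexosamine synthesis, was at -0.36 (limma adjusted p = 0.0699), Pmm2 at -0.33 and Uap1 at -0.21.

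Of 18 genes that trim the new glycan or read it, 1 was higher and 3 lower, with a median of -0.14. Over all genes 1.21% were higher and 23.9% lower. Canx, the membrane lectin chaperone calnexin, had 40.5 ± 10.1 TPM in weight-cycled and 62.9 ± 8.67 TPM in obese islets (SD, n = 4 each; log2 fold change -0.64, limma adjusted p = 0.0324). Uggt1, the folding sensor that reglucosylates glycoproteins, was at -0.54 (limma adjusted p = 0.0480) and Lman2, a cargo lectin, at -0.34. Edem2, which starts the trimming of misfolded glycoproteins, rose by 0.30, and by 0.62 after scaling (limma adjusted p = 0.0370). After scaling, 3 of these genes were higher and 0 lower, against 1.24% and 0.566% of all genes. Of 12 Golgi processing genes, 4 were lower, Mgat3, B4galt3, Mgat1 and Man1c1, at -0.60, -0.44, -0.39 and -0.43, and 8 did not pass. Their median was -0.32, beside 23.9% of all genes lower, and 0 passed after scaling. Mlec, the lectin malectin that binds ribophorin I, was at 0.021 (limma adjusted p = 0.896), and at 0.42 after length correction (limma adjusted p = 0.0412).

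The machinery beside which oligosaccharyltransferase works had 3 higher genes of 15, where 1.21% of all genes were higher. Scaling left 2 higher, against 1.24% of all genes. Length correction called 2 of the 10 translocon genes and 2 of the 5 signal peptidase genes higher, against 1.78% of all genes. Of 10 translocon and translocon-associated genes, Ssr4 was higher, at 839 ± 184 TPM in weight-cycled and 433 ± 48.3 TPM in obese islets (SD, n = 4 each; log2 fold change 0.93, limma adjusted p = 0.0165), and 9 did not pass. Among those 9, Sec61g was at 0.45, Ssr3 at 0.21 and Sec62 at -0.34. Of 5 signal peptidase genes, Sec11c at 0.85 and Spcs1 at 0.36 were higher (Spcs1 with a limma adjusted p of 0.0616 after scaling), while Sec11a and Spcs2, at 0.14 and 0.11, did not pass. The medians of these lists were 0.07 and 0.14, beside 0.06 for the oligosaccharyltransferase subunits. The differences between lists were not tested.

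**Figure D5:**
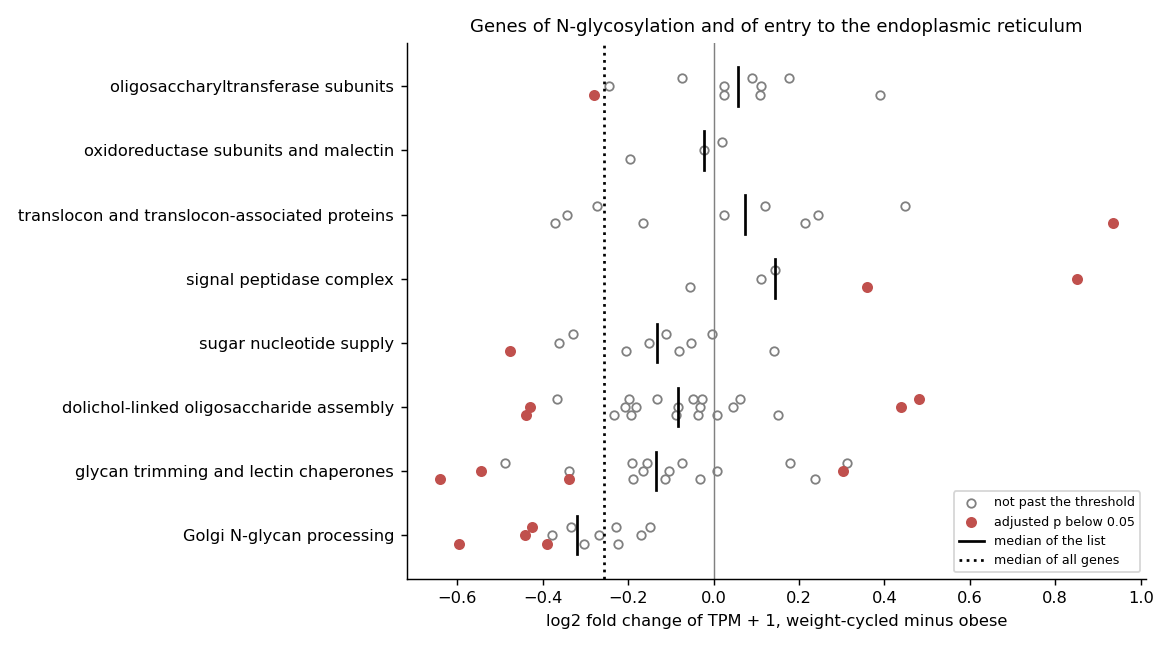
Log2 fold change of TPM + 1, weight-cycled minus obese (horizontal axis), of each measured gene by list, with filled red points for an adjusted p below 0.05, open points for the rest, a black bar for the list's median and a dotted line for the median of all genes at -0.26. The subunit list has 1 filled point, Stt3a, below 0.

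Other cell types could carry these transcripts, since acinar and plasma cells are also rich in secretory machinery. Summed acinar markers, 0 of 11 of which passed, ranged from 3323 to 7704 TPM in weight-cycled and from 2617 to 4831 TPM in obese libraries. How much of the subunit transcripts came from acinar cells was not tested. With the acinar score as a covariate, Ostc was at 0.44 (limma adjusted p = 0.0218), Stt3a at -0.30 and Stt3b at -0.30. That fit called 2.77% of all genes higher and 51% lower. Plasma and B cell markers summed to 1.44 to 3.67 TPM in weight-cycled and 2.59 to 5.01 TPM in obese libraries, with 1 of 2 tested lower. Macrophage markers summed to 38.5 to 47.8 TPM in weight-cycled and 49.0 to 60.7 TPM in obese libraries, with 3 of 4 tested lower, and endothelial markers to 25.3 to 53.1 and 46.3 to 74.9 TPM, with 2 of 6 lower. Alpha-cell markers, with 2 of 6 higher, summed to 3124 to 8526 TPM in weight-cycled and 4565 to 12317 TPM in obese libraries. Duct markers summed to 14.8 to 19.7 TPM in weight-cycled and 19.9 to 27.2 TPM in obese libraries, with the 1 tested lower, stromal markers to 1.26 to 2.77 and 1.93 to 2.82 TPM, and T cell markers to at most 0.239 and 0.199 TPM. Delta and PP cell markers summed to 5522 to 9771 TPM in weight-cycled and 4944 to 12021 TPM in obese libraries, with 0 of 3 passing. These marker counts stand beside 23.9% of all genes lower and 1.21% higher. After scaling 0 of the macrophage, duct, plasma and B cell markers and 1 endothelial marker were lower. Of the 8 beta-cell markers 1 was then lower, and of the 6 alpha-cell markers 1 was higher. The scaled fit called 0.566% of all genes lower and 1.24% higher.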

How the data were processed

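Polyadenylated RNA of islets was measured in 8 libraries, 4 weight-cycled and 4 obese, grouped by their titles. The authors deposited TPM per gene, and the submitters' processing notes name Salmon 1.5.2 and the build mm10. How transcripts were summed to genes, and on which annotation, is not stated. All 35596 gene IDs and versions matched GENCODE M21, which gave positions and lengths, and 99.8% had a symbol in the name table. TPM keeps no depth, so no count test or counting interval was possible.

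The members, lists and tests were chosen with earlier results of these data known. The filter was a mean of 1 TPM or more, and limma 3.58.1 was run in R 4.3.3 (eBayes with a trend) on log2(TPM + 1), two-sided, without covariates, with Benjamini-Hochberg adjustment over 8127 genes at 0.05. All 10 members passed the filter. The 2 ratios were compared by exact permutation. Alternatives were other pseudocounts (0.1 and 5), filters, scalings, a loess length correction (span 0.5) on log2 median transcript length, variance settings, a replicate block, an acinar covariate and leaving out each library. Corrections by GC content and by the longest transcript, and repeats of the scaled and corrected fits without single libraries or with the block, were chosen after seeing the data. The fit was tested on simulated data. Named genes were all members, Tusc3, Magt1, Mlec, up to 4 genes per list with the smallest p, and the 5 nearest profiles.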

Additional observations from a re-analysis of the deposited data

Results flagged for a closer look

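Dixon's ratio was computed for 32 sets of 4 values, of which chance marks about 1.6, and in 3 sets a single library lay far from the rest. The transcript of Rpn1 reached 56.8 TPM in the fourth weight-cycled library, while the remaining weight-cycled ones held 45.9 to 47.6 TPM. For Rpn2 the first weight-cycled library held 117 TPM and the remaining ones 92.2 to 96.3 TPM. For Magt1 the first weight-cycled library held 27.4 TPM and the remaining ones 17.8 to 19.3 TPM.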

How the results depend on the processing

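The number of members higher was 0 and of members lower 1 on TPM as deposited. The call of Stt3a was lost, so that 0 were lower, with its fold change at -0.29 with a pseudocount of 0.1 (limma adjusted p = 0.0505) and at -0.28 without the filter, where limma called 0 of 19482 genes (5283 lower and 403 higher at an unadjusted p under 0.05), and at -0.28 without a variance trend. It was also lost after median-of-ratios and quantile scaling, after length correction by either length and after GC correction. Array weights gave 2 higher and 2 lower, in a fit that called 3.64% of all genes higher and 55.4% lower. The acinar covariate gave 1 higher and 2 lower, against 2.77% and 51% of all genes. Without single libraries the counts ranged from 0 to 2 in each direction, and were 0 lower without any library but weight-cycled replicate 1. After scaling they ranged from 0 to 7 higher and after length correction from 0 to 6, each with 0 lower, and were above 0 only without weight-cycled replicate 1. Over all genes, libraries of the same replicate number were not alike (correlations of deviations -0.28 to 0.23). The log2 ratio of Ostc plus Krtcap2 to Tusc3 plus Magt1 still rose with replicate number in both groups. Whether the numbers pair the libraries cannot be told from these values. With the replicate block 1 member was higher (Ostc, limma adjusted p = 0.0339) and 0 lower, against 1.83% and 33.9% of all genes. Counts with the block were also 1 and 0 after scaling (4.39% and 1.13% of all genes) and after length correction (2.5% and 1.69%). The ratios had exact permutation p = 0.875 and 0.125 with the block, where 0.125 is the smallest that 16 assignments allow. Signs turned for Rpn2 (0.25 scaled, 0.22 length-corrected, 0.18 by the longest transcript, 0.14 GC-corrected), Stt3a (0.043 scaled, 0.087 by the longest transcript), Stt3b (0.033 scaled, 0.021 quantile, 0.11 length-corrected, 0.087 by the longest transcript), Dad1 (-0.045 with array weights, -0.0021 with the acinar covariate, -0.017 and -0.029 without obese replicates 3 and 4) and Ost4 (-0.022 without weight-cycled replicate 4). Without single libraries Dad1 ranged from -0.029 to 0.10 and Ost4 from -0.022 to 0.083. The difference in the ratio of Stt3a to Stt3b was -0.035 with a pseudocount of 1, -0.29 after length correction (exact permutation adjusted p = 0.0571), -0.013 by the longest transcript, and ranged from -0.072 to 0.096 without single libraries. The other ratio stayed between 0.26 and 0.49 under every alternative run, in designs too small for its adjusted p to pass beside a first ratio that does not. The cause of these changes was not tested. Unknown depth limits the precision for Stt3b, the member with the fewest TPM.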
